A study of Homo sapiens with 12 samples.

Results

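The transcripts of 39 enzymes of central carbon metabolism were followed in Ewing sarcoma cells after transcription had been stopped with actinomycin D. The members were chosen by name and not by their values, although earlier results of these data were known. They are 20 genes of glycolysis, lactate dehydrogenase and PFKFB enzymes, 5 genes of the pyruvate dehydrogenase complex and 14 genes of the TCA cycle. All 39 were found in the count table of 26334 gene symbols, and all 39 were among the 12032 genes tested, those averaging at least 10 counts per library. Glycolysis splits glucose into pyruvate in the cytosol, lactate dehydrogenase interconverts pyruvate and lactate, and the pyruvate dehydrogenase complex turns pyruvate into the acetyl-CoA that enters the TCA cycle in mitochondria. Hexokinase, phosphofructokinase (PFK1) and pyruvate kinase are the irreversible steps of glycolysis. The bifunctional PFKFB enzymes make and remove fructose 2,6-bisphosphate, the strongest allosteric activator of PFK1, and tumour cells are known for high glycolytic flux even where oxygen is present.

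Cells labelled shA673-1c, an A673 Ewing sarcoma derivative grown under Blasticidin and zeocyn, were sampled after 0, 1, 2 and 4 h in 5 µM actinomycin D. There were 3 biological replicates at each time. Every group shares the line and the selection, and the groups differ in hours of exposure to the drug. The 0 h libraries are the reference. Vehicle-treated cells were not analysed here, so exposure to the drug cannot be told apart from elapsed time. Total counts ranged from 9147018 to 11194705 over the 12 libraries. Short-lived MYC and JUN fell steeply, with slopes of -1.12 and -0.89 log2 per hour. Both departed from a straight line in time (edgeR adjusted p = 0.00579 and 0.0320), with most of the loss within 2 h. Of 6 Ewing sarcoma markers, NR0B1, NKX2-2, STEAP1, PRKCB and CCND1 were detected with means of 43.1 to 17762 counts, while CD99 was listed at 0 in all 12 libraries, as were 15 of 16 genes of the pseudoautosomal regions that were looked up after this was seen. Markers of leukocytes, epithelium, endothelium, hepatocytes and muscle (PTPRC, EPCAM, PECAM1, ALB and MYOD1) had at most 6 counts in any library.

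For each gene a slope (log2 per hour) with its standard error (SE) was fitted over the 12 libraries with edgeR on TMM-scaled counts, and p-values were adjusted over all tested genes by the Benjamini-Hochberg method. No spike-in entered the scaling, so "rose" means that a transcript gained relative to the bulk of the counted mRNA, and slower loss than the bulk cannot be told apart from a gain in molecules. Of the 39 members, 29 rose and 2 fell at an adjusted p below 0.05 (edgeR), and 8 did not pass the threshold. Over all tested genes, 30.7% rose and 32.1% fell. The median slope was 0.11 for the members (0.12, 0.11 and 0.11 in the 3 replicates fitted alone) and 0.0093 for all tested genes, and 32 of the 39 members lay above the latter. The 2 that fell were PFKFB3 and HK2, and from 0, 1 and 2 h alone 0 fell (edgeR, 9 libraries). With every library scaled to its ACTB count, the median over all tested genes shifted to -0.11, 0 members rose and 8 fell (HK2, PFKFB3, PFKFB4, LDHA, DLAT, PDHX, IDH3A and OGDH), while 81 of all 12032 tested genes rose and 6239 fell. Directions below are therefore relative to TMM. The distance of the members' median from that of all genes was nearly the same, at 0.0995 with TMM and 0.0991 with ACTB.

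**Figure D1:**
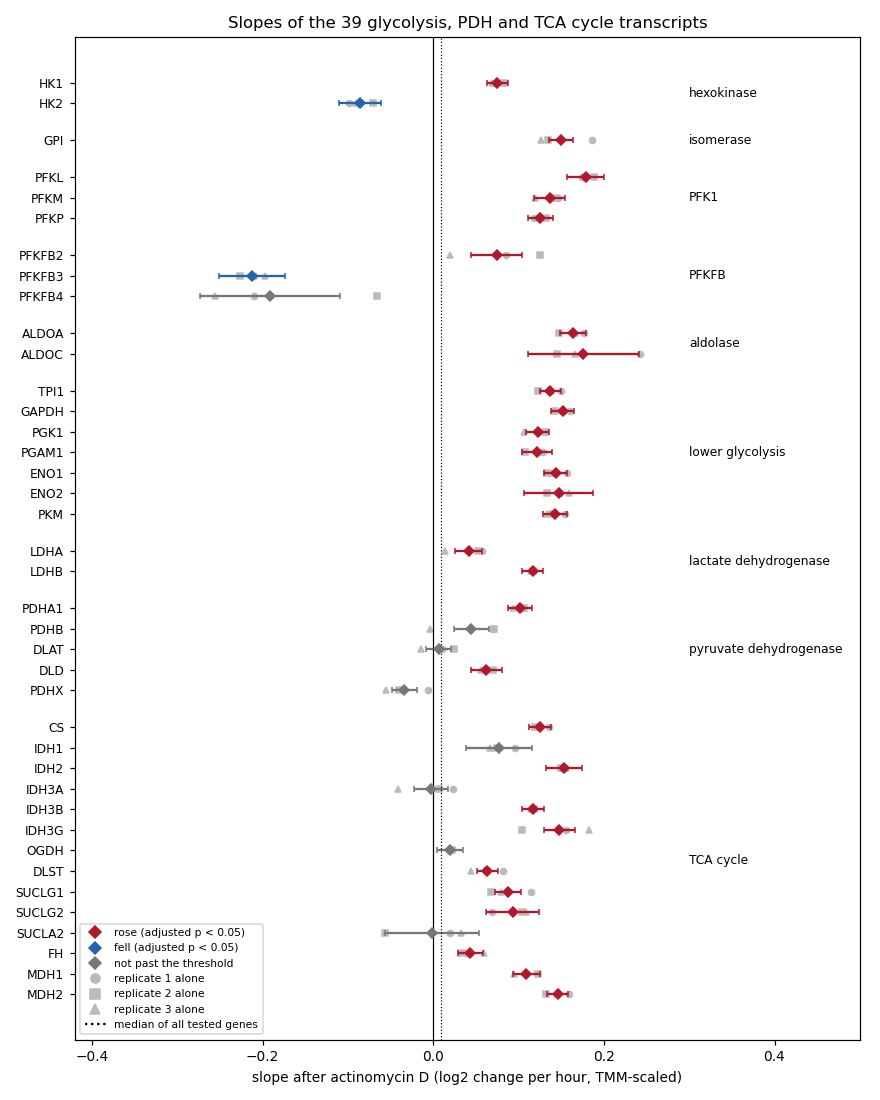
Slope of each of the 39 transcripts, grouped by step (x axis, log2 change per hour on the TMM scale; diamonds, fit over 12 libraries with the standard error; grey marks, each replicate alone). PFKFB3 at -0.21 and HK2 at -0.086 are the transcripts past the threshold on the left, while the 7 lower glycolysis enzymes lie between 0.12 and 0.15.

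Abundant transcripts as a class rose more often. Among 2326 tested genes averaging at least 1000 counts, a limit set after the data were seen, 57.7% rose and 15.6% fell, with a median slope of 0.062. Of the members, 28 reached that mean, and 24 of them rose and 0 fell by the edgeR slope test, with a median slope of 0.12. The part of abundance in the members' slopes was not tested.

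The comparison of 4 h with 0 h, with time as 4 groups, called 27 members higher and 2 lower (edgeR, adjusted p below 0.05), against 28.7% and 31.6% of all tested genes. The ranges of the 3 libraries at 0 h and the 3 at 4 h did not overlap for 31 of the 39 members, in either direction, whereas 63.3% of all tested genes showed such a gap. No member departed from a straight line in time: 0 of 39 were called by edgeR and 0 had an unadjusted p below 0.05, while 2.70% of all tested genes were called. Libraries that share a replicate number departed from their group means in the same way. With the replicate number as a block, 4 members fell (PFKFB4 and PDHX in addition) and 31 rose (PDHB and IDH1 in addition), against 34.8% and 36.2% of all tested genes. In that paired fit 4 members were lower and 32 higher at 4 h, against 36% and 36.8% of all tested genes. In it 4 members departed from a line (PGK1, LDHA, LDHB and MDH1), against 17.2% of all tested genes. PGK1 had means of 505 CPM at 0 h, 506 CPM at 1 h, 592 CPM at 2 h and 692 CPM at 4 h.

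The PFKFB enzymes, which set the level of the PFK1 activator, held the steepest fall and a rise. PFKFB3 lies on chromosome 10 of GRCh38 from 6144934 to 6254644. Its levels at 0 h were 101, 91.6 and 71.4 CPM in replicates 1 to 3. They were 89.3, 82.4 and 60.2 CPM at 1 h, 77.1, 65.0 and 54.6 CPM at 2 h, and 56.8, 49.98 and 40.9 CPM at 4 h. The level dropped at every step in each replicate, replicate 3 was lowest throughout, and all libraries at 4 h lay below all at 0 h. The slope was -0.21 (SE 0.039, edgeR adjusted p = 0.000158), a half-life of 4.72 h relative to the scaling, and the level at 4 h was 0.559 times that at 0 h. With 0, 1 and 2 h alone, from 9 libraries, the slope was -0.20 and the adjusted p 0.0752 (edgeR).

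PFKFB2, a form regulated by phosphorylation in heart and other tissues, had 14.4, 13.4 and 16.8 CPM at 0 h and 18.5, 18.3 and 17.5 CPM at 4 h. The groups did not overlap, and the slope was 0.075 (SE 0.030, edgeR adjusted p = 0.0392). That call was lost without replicate 1 (slope 0.069, adjusted p = 0.167, edgeR) and without replicate 2 (0.052, adjusted p = 0.184), and PFKFB2 was not past the threshold in the 4 h against 0 h comparison (adjusted p = 0.0708). PFKFB4, a hypoxia-inducible form, was the least abundant of the family, with 23 to 103 counts per library. It had 4.81, 4.14 and 8.07 CPM at 0 h and 2.72, 3.48 and 4.14 CPM at 4 h, with replicate 3 the highest at every time. The highest library at 4 h was level with the lowest at 0 h. Its slope of -0.19 (SE 0.083, edgeR adjusted p = 0.0534) passed the threshold once the replicate number was a block (-0.18, adjusted p = 0.00335, edgeR). PFKFB1, the liver form, had at most 3 counts.

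Counts of 2 genes in the same library give a ratio that no scaling can move, and the slope of such a ratio was tested by permuting the time labels over the 12 libraries (100000 resamples, two-sided). PFKFB2, PFKFB3 and PFKFB4 together amounted to 0.204 times the counts of PFKL, PFKM and PFKP at 0 h (0.178 to 0.217 over the libraries) and 0.0903 times at 4 h (0.0793 to 0.0975). Most of this sum was PFKFB3, at 0.165 times at 0 h and 0.0628 times at 4 h. The log2 ratio of the PFKFB sum to the PFK1 sum fell by 0.30 per hour (permutation p = 2e-05, adjusted p = 6e-05 over 4 ratios), and by 0.29 to 0.30 in the replicates taken alone. The permutation test also passed for each PFKFB gene over the PFK1 sum, with slopes of -0.35 for PFKFB3 (adjusted p = 6e-05), -0.32 for PFKFB4 (adjusted p = 0.00455) and -0.064 for PFKFB2 (adjusted p = 0.0251). The last was not past the threshold without replicate 1 (-0.069, exact permutation test, adjusted p = 0.101) or without replicate 3 (-0.037, adjusted p = 0.186). From 0, 1 and 2 h alone neither PFKFB4 (-0.17) nor PFKFB2 (-0.045) over the PFK1 sum passed (exact permutation test, adjusted p = 0.475 for each). Within the family, PFKFB2 gained on PFKFB3 by 0.29 per hour (permutation test, adjusted p = 0.00429 over 19 pairs) and on PFKFB4 by 0.26 (adjusted p = 0.0133). Neither was past the threshold without replicate 1 (0.28 and 0.24, exact permutation test, adjusted p = 0.0618 and 0.110) or replicate 2 (0.26 and 0.30, adjusted p = 0.0506 and 0.0660). For PFKFB3 over PFKFB4 the slope was -0.027, with 0.010, -0.16 and 0.069 in the single replicates (permutation test, adjusted p = 0.878), so this pair was not resolved.

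**Figure D2:**
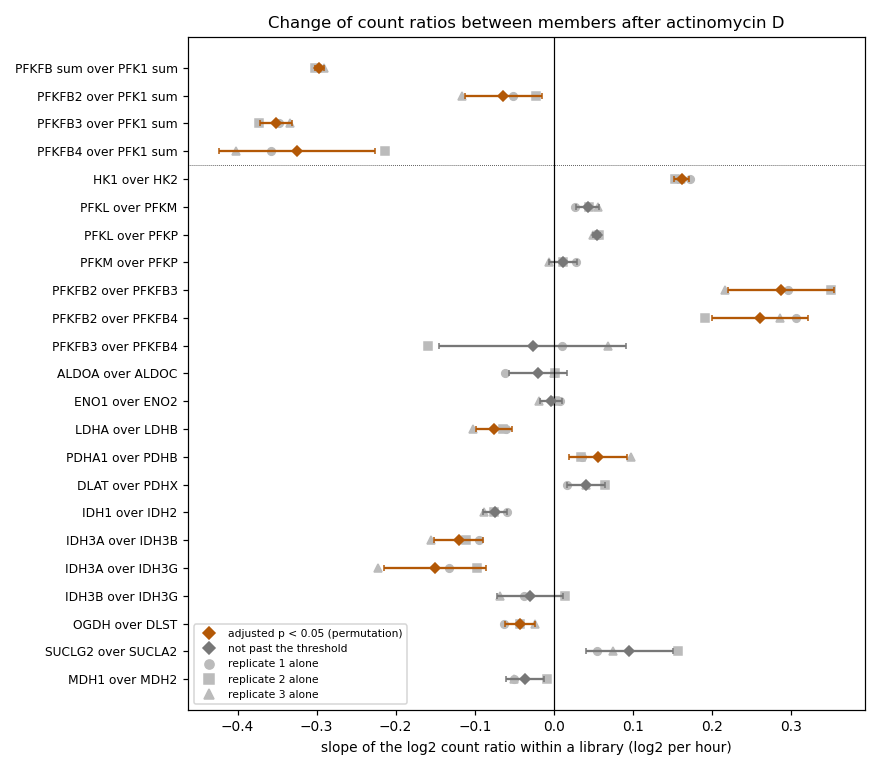
Slopes of log2 count ratios within libraries (x axis, log2 per hour; diamonds, all 12 libraries with the SD of the 3 single-replicate slopes; grey marks, the replicates). The ratio of the PFKFB sum to the PFK1 sum falls by 0.30 per hour with the replicates nearly on top of each other, and 8 of the 19 pairs below the dotted line are past the threshold.

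AU-rich elements of the 3′ UTR, typically copies of ATTTA and more stringently the nonamer TTATTTATT, are known to shorten the life of many regulatory mRNAs. Both motifs were searched on the sense strand of the 3′ UTR of the Ensembl canonical transcript (GENCODE version 44, GRCh38), with overlapping copies counted and each nonamer containing a pentamer. A nonamer was found in 7 of the 39 members (17.9%) and in 10.1% of 10819 tested genes with an annotated 3′ UTR, and a pentamer in 26 members (66.7%) and in 75.1% of tested genes. The nonamers of the transcript with the steepest fall, of PDHX and IDH3A, members of the mitochondrial sets that were not past the threshold, and of ENO2, which rose, are shown with 10 bases on either side, with the nonamer in capitals. For ENO2 the capitals mark only the middle of its 3 overlapping nonamers.

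PFKFB3, chr10:6235286-6235314, plus strand: gatgtgctatTTATTTATTtaatatgtat

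PDHX, chr11:34995274-34995302, plus strand: gatgaaatgtTTATTTATTtaaggtgaaa

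IDH3A, chr15:78169202-78169230, plus strand: agtgcttgttTTATTTATTaagtgtctac

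ENO2, chr12:6923286-6923314, plus strand: gtgtatttatTTATTTATTtattttattt

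ENO2 carries 3 overlapping nonamers and 4 pentamers, the most nonamers of any member, and it rose with a slope of 0.15. HK1 and PFKM, with 1 nonamer each, also rose, and OGDH, with 1, had a slope of 0.020. PFKFB4 holds 0 copies of either motif in its 2063-base 3′ UTR and had a slope of -0.19, and PFKFB2, with 14 pentamers in 5446 bases, the most of the 39, had a slope of 0.075. HK2 has 5 pentamers in 2418 bases and PFKFB3 5 in 2590 bases. Across the 39 members, Spearman's rho between slope and pentamer number was -0.488, against -0.306 across the 10819 genes, and for 3′ UTR length it was -0.446 against -0.267. These are descriptions across genes, which are not independent replicates, and the isoform that A673 cells use was not determined.

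**Figure D3:**
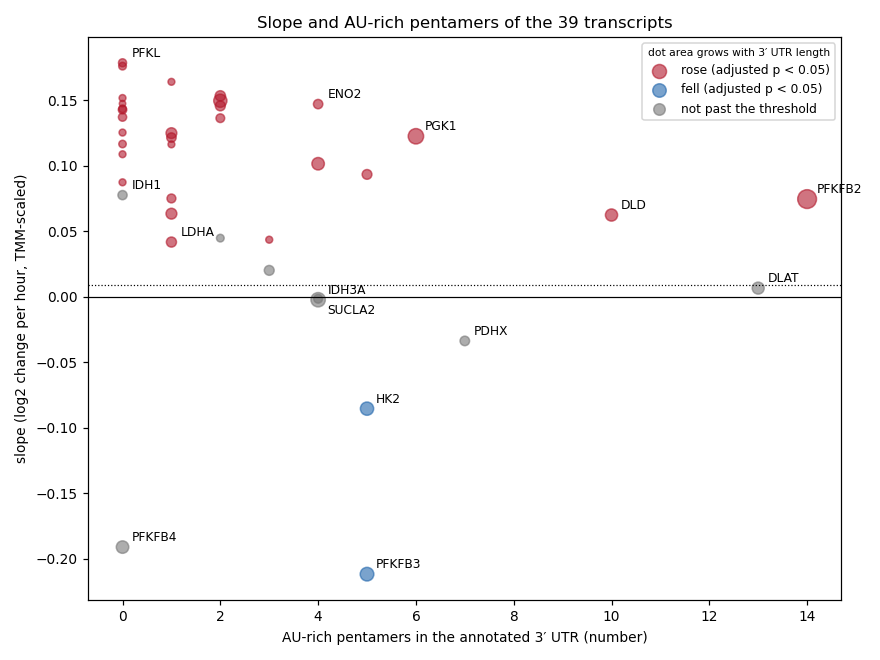
Slope (y axis, log2 change per hour) against the number of AU-rich pentamers in the annotated 3′ UTR (x axis) for the 39 transcripts; colour gives the call and dot area grows with 3′ UTR length. PFKFB4 is low with 0 pentamers and PFKFB2 is above 0 with 14, while the 2 that fell have 5 each.

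Hexokinases phosphorylate incoming glucose. HK1, the widely expressed form, lies on chromosome 10 from 69269984 to 69401884, and HK2, the form induced in muscle, fat and many tumours, on chromosome 2 from 74834127 to 74893359. Per kilobase of transcript, the level at 0 h was 37.2 ± 1.62 CPM for HK1 and 16.3 ± 1.19 CPM for HK2 (mean ± SD, n = 3). HK1 had 141, 131 and 130 CPM at 0 h and 169, 167 and 160 CPM at 4 h. HK2 had 93.7, 96.8 and 84.0 CPM at 0 h, 95, 104 and 81.0 CPM at 1 h, 84.9, 91.5 and 80.8 CPM at 2 h, and 73.0, 82.5 and 65.1 CPM at 4 h. The first rose and the second fell with no overlap between the end points, with slopes of 0.075 (SE 0.012, edgeR adjusted p = 6.14e-05) and -0.086 (SE 0.024, edgeR adjusted p = 0.00597). HK2 had a mean of 93.4 CPM at 1 h against 91.5 CPM at 0 h, and its slope was -0.036 over 0, 1 and 2 h alone (adjusted p = 0.616, edgeR). The HK2 call was also lost without replicate 1 (slope -0.079, adjusted p = 0.0659, edgeR). It was kept with the replicate number as a block (-0.086, edgeR adjusted p = 5.2e-05). The count ratio of HK1 to HK2 went from 1.47 at 0 h to 2.27 at 4 h, a slope of 0.16 with 0.15 to 0.17 in the replicates (permutation test, adjusted p = 0.000823 over 19 pairs).

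The 3 subunits of PFK1, the committed step, rose together. PFKL, the liver-type subunit, had 116, 96.7 and 127 CPM at 0 h, 125, 122 and 138 CPM at 1 h, 152, 134 and 149 CPM at 2 h, and 185, 168 and 206 CPM at 4 h. All libraries at 2 and 4 h lay above those at 0 h. Its slope of 0.18 (SE 0.022, edgeR adjusted p = 2.45e-06) was the highest of the 39 and above that of 96.2% of all tested genes. PFKM, the muscle type, had a slope of 0.14 and PFKP, the platelet type, one of 0.13. Of the 3 ratios among them, none passed the threshold, with slopes of 0.043 for PFKL over PFKM, 0.054 for PFKL over PFKP and 0.011 for PFKM over PFKP (permutation test, adjusted p = 0.0713, 0.137 and 0.760). With time labels permuted within replicates as the paired form, PFKL over PFKP passed (adjusted p = 0.00155), with 0.049 to 0.057 in the replicates. Per kilobase, PFKP was the most abundant at 0 h, with 109 ± 5.57 CPM, and PFKM (43.95 ± 2.58) and PFKL (38.99 ± 5.30) differed by less than their spread.

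**Figure D4:**
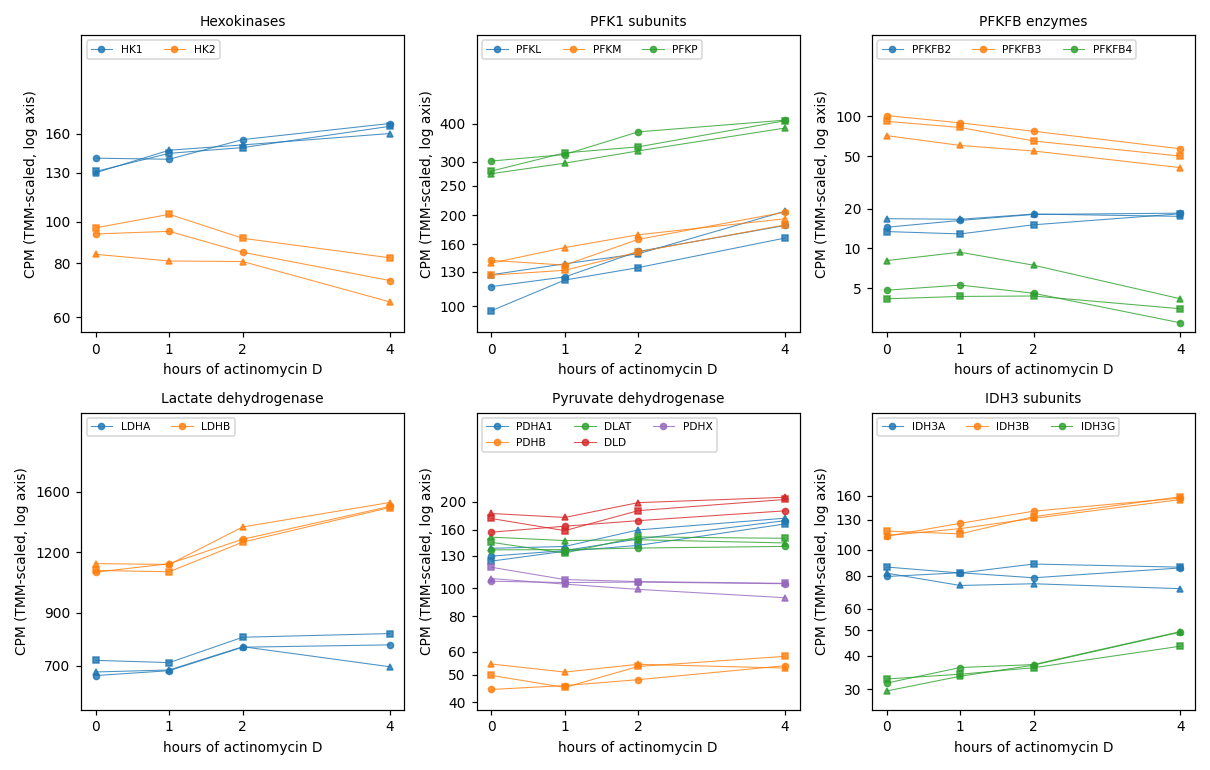
TMM-scaled CPM (log axis) over hours of actinomycin D for 6 enzyme sets; each line is 1 replicate (circle, replicate 1; square, 2; triangle, 3). HK1 and HK2 diverge from 134 and 91.5 CPM to 165 and 73.5 CPM, PFKFB3 descends in every replicate, and IDH3A stays near 80 CPM while IDH3B and IDH3G climb.

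The other enzymes from GPI down to pyruvate kinase all rose by the edgeR slope test, with slopes of 0.12 to 0.18. GPI, which makes fructose 6-phosphate, had a slope of 0.15 (SE 0.014, edgeR adjusted p = 1.98e-07). Aldolase A, the main aldolase outside liver and brain, went from 1195, 1107 and 1149 CPM at 0 h through 1363, 1236 and 1245 CPM at 1 h and 1524, 1368 and 1411 CPM at 2 h to 1960, 1666 and 1808 CPM at 4 h, and ALDOA had a slope of 0.16 (SE 0.015, edgeR adjusted p = 1.19e-07). ALDOC, the brain form, was far rarer, with 5.39 ± 1.66 CPM per kilobase at 0 h against 701 ± 26.8 for ALDOA. It had 5.70, 10.9 and 9.40 CPM at 0 h, 5.74, 10.98 and 10.6 CPM at 1 h, 7.14, 12.9 and 14.0 CPM at 2 h, and 10.7, 15.9 and 14.7 CPM at 4 h, so that the lowest library at 4 h, from replicate 1, lay within the range at 0 h. ALDOC had a slope of 0.18 (SE 0.065, edgeR adjusted p = 0.0269), which was not past the threshold without replicate 2 (0.19, adjusted p = 0.0781) or replicate 3 (0.18, adjusted p = 0.0672). Replicate 1 was lowest at every time, and the single replicates had slopes of 0.24, 0.15 and 0.17. With the replicate number as a block ALDOC kept its call (0.18, SE 0.029, edgeR adjusted p = 3.51e-05).

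GAPDH, on chromosome 12 from 6534512 to 6538374, was the most abundant member at 4670 ± 163 CPM per kilobase at 0 h, followed by ENO1 (2157 ± 71.5), PKM (1231 ± 43.5), LDHB (852 ± 18.3), ALDOA and TPI1 (584 ± 6.12), and neighbours in this order differed by more than their spread. GAPDH had 6237, 5837 and 5929 CPM at 0 h, 6629, 6181 and 6337 CPM at 1 h, 7467, 6965 and 7331 CPM at 2 h, and 9600, 8578 and 8916 CPM at 4 h, a slope of 0.15 (SE 0.013, edgeR adjusted p = 6.18e-08). All 7 lower glycolysis transcripts rose, against 30.7% of all tested genes. The slopes were 0.12 for PGK1 and PGAM1, which handle the 1,3- and 3-phosphoglycerates, 0.14 for TPI1, which interconverts the triose phosphates, 0.14 for ENO1 and PKM, and 0.15 for ENO2 and GAPDH. The neuronal enolase ENO2, with 14.5 ± 2.57 CPM per kilobase at 0 h, kept step with ENO1 at a ratio slope of -0.0031 (permutation test, adjusted p = 0.953), with 0.0077, 0.0018 and -0.019 in the replicates. Several of these genes, GAPDH above all, have processed pseudogenes, and how reads shared with them were counted is not given in the sources used here. PGAM4, a near-copy of PGAM1, had at most 5 counts.

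The lactate dehydrogenase subunits differed. LDHA, the form that favours lactate production, had 668, 718 and 680 CPM at 0 h, 684, 711 and 686 CPM at 1 h, 765, 802 and 766 CPM at 2 h, and 773, 816 and 697 CPM at 4 h. The groups at 0 and 4 h overlapped through replicate 3, which came back down after 2 h. LDHB, the heart form, had 1092, 1101 and 1138 CPM at 0 h and 1493, 1485 and 1521 CPM at 4 h, with no overlap. The slope was 0.042 for LDHA (SE 0.016, edgeR adjusted p = 0.0314) and 0.12 for LDHB (SE 0.013, edgeR adjusted p = 7.57e-07). The LDHA call was lost without replicate 1 (0.034, adjusted p = 0.189, edgeR), without replicate 2 (0.035, adjusted p = 0.127), with library totals (0.0023, adjusted p = 0.901) and with no filter on counts (0.039, adjusted p = 0.0718). It was kept with the replicate number as a block (0.041, edgeR adjusted p = 0.00612). The ratio of LDHA to LDHB counts declined from 0.621 to 0.509 between 0 and 4 h, a slope of -0.076 with -0.060, -0.064 and -0.10 in the replicates (permutation test, adjusted p = 0.00429), which was not past the threshold without replicate 1 (-0.083, exact permutation test, adjusted p = 0.0618). Neither 3′ UTR holds a nonamer; each holds 1 pentamer, in 1144 bases for LDHA and 200 for LDHB.

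The pyruvate dehydrogenase complex sat lower than glycolysis, with a median slope of 0.045 for its 5 genes against 0.14 for the 17 glycolytic genes other than PFKFB. No test was run between these medians, which are descriptions of the lists. Of the 5, 2 rose and 0 fell, against 30.7% and 32.1% of all tested genes. PDHA1, the catalytic and phosphorylated E1 alpha subunit, had a slope of 0.10 (SE 0.014, edgeR adjusted p = 8e-06), and DLD, the E3 dehydrogenase that the complex shares with the 2-oxoglutarate complex, one of 0.062 (SE 0.018, edgeR adjusted p = 0.00612). DLD was not past the threshold without replicate 2 (0.058, adjusted p = 0.0509, edgeR) or with library totals (0.024, adjusted p = 0.308). PDHB, the E1 beta partner, had a slope of 0.045 (adjusted p = 0.0732, edgeR), with 0.070, 0.071 and -0.0044 in the replicates, and DLAT, the E2 core, one of 0.0066 (adjusted p = 0.717, edgeR).

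PDHX, the E3-binding protein, had 106, 118 and 108 CPM at 0 h and 104, 104 and 92.7 CPM at 4 h, so every library at 4 h lay below those at 0 h by a small margin. Its slope was -0.034 (SE 0.015, edgeR adjusted p = 0.0610). It was past the threshold with the replicate number as a block (-0.034, adjusted p = 0.0155, edgeR), with a mean of at least 100 counts (-0.040, adjusted p = 0.0188) and with library totals (-0.073, adjusted p = 0.000187). PDHA1 gained on PDHB by 0.056 per hour (permutation test, adjusted p = 0.0379), a call lost without replicate 1 (0.066, exact permutation test, adjusted p = 0.0942) and without replicate 3 (0.035, adjusted p = 0.313). DLAT gained on PDHX by 0.041 (permutation test, adjusted p = 0.0789, or 0.000458 with permutation inside replicates).

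In the TCA cycle, 10 of 14 genes rose, 0 fell by the edgeR slope test and 4 did not pass the threshold (IDH1, IDH3A, OGDH and SUCLA2), against 30.7% of all tested genes that rose and 32.1% that fell. CS, which joins acetyl-CoA to oxaloacetate, rose with a slope of 0.12 (SE 0.013, edgeR adjusted p = 5.47e-07). MDH2, the mitochondrial malate dehydrogenase that regenerates oxaloacetate, rose with one of 0.15 (SE 0.013, edgeR adjusted p = 6.11e-08), and the cytosolic MDH1 with 0.11. The slopes were 0.087 for SUCLG1 and 0.093 for SUCLG2, the alpha and GTP-forming beta subunits of succinyl-CoA ligase, 0.063 for DLST, the E2 core of the 2-oxoglutarate complex, and 0.044 for FH, the fumarase. SUCLG2 was not past the threshold without replicate 1 (0.11, adjusted p = 0.0557, edgeR) or replicate 3 (0.081, adjusted p = 0.0520), nor was FH without replicate 3 (0.030, adjusted p = 0.184). With library totals the calls of DLST (0.024, edgeR adjusted p = 0.111), SUCLG2 (0.055, adjusted p = 0.166) and FH (0.0047, adjusted p = 0.803) were lost.

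OGDH, the E1 subunit of the 2-oxoglutarate complex, had a slope of 0.020 (SE 0.015, edgeR adjusted p = 0.263), which turned to -0.019 with library totals. It lost ground to its partner DLST by 0.043 per hour (permutation test, adjusted p = 0.0216), in 3 of 3 replicates, although not past the threshold without replicate 1 (-0.033, exact permutation test, adjusted p = 0.139) or replicate 2 (-0.043, adjusted p = 0.0687). SUCLA2, the ATP-forming beta subunit, was scarce at 1.53 ± 0.188 CPM per kilobase at 0 h and a mean of 33.8 counts. Its slope of -0.0016 had a standard error of 0.055, so a change as large as that of most members was not detectable with this error, and SUCLG2 over SUCLA2 had a slope of 0.096 (permutation test, adjusted p = 0.214).

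The isocitrate dehydrogenases split by gene. The NAD-dependent enzyme of the cycle is built from IDH3A, the catalytic alpha subunit, with IDH3B and IDH3G. IDH3A, on chromosome 15 from 78131498 to 78171945, had 79.5, 86.2 and 81.8 CPM at 0 h and 85.6, 86.1 and 71.5 CPM at 4 h. The groups overlapped, and the slope was -0.0023 (SE 0.020, edgeR adjusted p = 0.925). IDH3B went from 113, 118 and 113 CPM to 157, 158 and 155 CPM, and IDH3G from 31.6, 32.8 and 29.5 CPM to 49.4, 43.5 and 49.1 CPM, both without overlap. Their slopes were 0.12 (SE 0.013, edgeR adjusted p = 7.41e-07) and 0.15 (SE 0.018, edgeR adjusted p = 2.69e-06). The count ratio of IDH3A to IDH3B fell from 0.721 to 0.518, by 0.12 per hour on the log2 scale, and that of IDH3A to IDH3G from 2.64 to 1.72, by 0.15 per hour (permutation test, adjusted p = 0.000823 for each), with the same sign in 3 of 3 replicates. IDH3A has a 3′ UTR of 2940 bases with 4 pentamers and the nonamer shown above. Those of IDH3B (356 bases) and IDH3G (104 bases) hold 0 of either motif. Whether the motifs bear on these slopes was not tested.

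IDH1 is the cytosolic and IDH2 the mitochondrial NADP-dependent enzyme. IDH2 had 126, 122.5 and 146 CPM at 0 h, 129, 133 and 149 CPM at 1 h, 148, 163 and 174 CPM at 2 h, and 189, 183 and 219.5 CPM at 4 h, without overlap and with replicate 3 the highest at each time, and its slope was 0.15 (SE 0.021, edgeR adjusted p = 9.05e-06). IDH1 had 188, 193 and 269 CPM at 0 h and 243, 231 and 315 CPM at 4 h, so the groups overlapped because replicate 3 stood high at every time. Each replicate of IDH1 had a positive slope (0.096, 0.075 and 0.067), the joint slope was 0.078 (SE 0.039, edgeR adjusted p = 0.0912), and the paired fit, blocked on replicate number, put it past the threshold (0.079, SE 0.011, adjusted p = 8.7e-06). It also passed without replicate 3 (0.081, adjusted p = 0.000646). The ratio of IDH1 to IDH2 fell by 0.074 per hour in the free permutation test (adjusted p = 0.0543) and passed with permutation inside replicates (adjusted p = 0.00118).

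Of the 19 pairs of isozymes or subunits, 8 differed in slope past an adjusted p of 0.05 (permutation test), and 14 had the same sign in 3 of 3 replicates. Some pairs share a gene, such as IDH3A or PFKFB2, so they are not independent. The share among other gene pairs was not computed. The number past the threshold was 3 without replicate 1 and 5 without replicate 2, each from 8 libraries, and 11 with permutation inside replicates. From 0, 1 and 2 h alone it was 0 (exact permutation test, 9 libraries), with the slope of LDHA over LDHB at -0.024. The pairs that shared a slope most closely were ENO1 with ENO2, PFKM with PFKP, and ALDOA with ALDOC (ratio slope -0.020, permutation test, adjusted p = 0.878), although the SD of the last over replicates was 0.037.

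Other genes of these pathways were listed from textbook steps. Of 25 further isozymes and step enzymes, 15 fell below the count limit, among them PKLR, a liver form, and the germline forms PGK2, LDHC and PDHA2. Of the 10 tested, 6 rose and 0 fell by the edgeR slope test, against 30.7% and 32.1% of all tested genes. Those that rose included ACO1, the cytosolic aconitase (slope 0.11), and the ADP-dependent glucokinase ADPGK (0.059). The succinate dehydrogenase subunits SDHA (0.046), SDHB (0.076) and SDHC (0.13) rose as well. SDHA was not past the threshold without replicate 1 (0.039, adjusted p = 0.0568, edgeR).

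The regulators of pyruvate dehydrogenase held the steepest slopes of any enzyme considered here. The phosphatases PDP1 and PDP2, which switch the complex on, fell with slopes of -0.50 (SE 0.041, edgeR adjusted p = 3.34e-08) and -0.50 (SE 0.029, edgeR adjusted p = 1.6e-09), half-lives of 2.01 and 1.99 h relative to the scaling. Counts per library were 31 to 179 for PDP1 and 110 to 566 for PDP2. The kinases that switch the complex off went the other way, with slopes of 0.092 for PDK1 (adjusted p = 0.0204, edgeR) and 0.13 for PDK2 (adjusted p = 0.00962, edgeR). PDK3 had a slope of 0.14 (adjusted p = 0.0722, edgeR) and PDK4 at most 2 counts. PDPR, the regulatory subunit of the phosphatase, rose with a slope of 0.046 (adjusted p = 0.0203, edgeR). Of 6 tested regulators, 3 rose and 2 fell, against 30.7% and 32.1% of all tested genes. PDK3 also passed in the blocked fit (0.15, edgeR adjusted p = 0.0455). The calls of PDK1 and PDK2 were lost without replicate 1 (0.076 and 0.10, adjusted p = 0.108 and 0.0932, edgeR), that of PDK1 also without replicate 2 (0.079, adjusted p = 0.153), and that of PDPR without replicate 2 or 3 (0.039 and 0.040, adjusted p = 0.143 and 0.110).

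Of 6 carriers, 2 rose, a share close to the 30.7% of all tested genes: the mitochondrial pyruvate carrier subunits MPC1 (slope 0.083, adjusted p = 0.0150, edgeR) and MPC2 (0.092, adjusted p = 0.00247, edgeR), the former not without replicate 2 (0.072, adjusted p = 0.130). With library totals neither MPC1 (0.044, adjusted p = 0.210, edgeR) nor MPC2 (0.054, adjusted p = 0.0634) was past the threshold. The glucose transporters SLC2A1 and SLC2A3 had slopes of -0.030 and -0.073 (adjusted p = 0.337 and 0.0547, edgeR). SLC2A3 passed with the replicate number as a block (-0.074, edgeR adjusted p = 0.0222) and was 0.784 times its 0 h level at 4 h (edgeR adjusted p = 0.0147), with no overlap between the groups. Its means were 30.8, 24.2, 24.3 and 24.2 CPM at 0, 1, 2 and 4 h, so the drop came by 1 h. The blocked fit called a departure from a line (edgeR adjusted p = 0.0146), the main fit did not (adjusted p = 0.400). The monocarboxylate carriers SLC16A1 and SLC16A3 had slopes of -0.0098 and 0.069 (adjusted p = 0.629 and 0.288, edgeR). Of 9 bypass and anaplerotic enzymes, 5 were tested. Of these, 3 rose and 1 fell, against 30.7% and 32.1% of all tested genes. Pyruvate carboxylase (PC, slope 0.14, adjusted p = 7e-05, edgeR) and the malic enzymes ME1 (0.094, adjusted p = 0.000113) and ME2 (0.072, adjusted p = 0.00178) rose, PCK2 had a slope of 0.077 (adjusted p = 0.146, or 0.0119 with the replicate block), and TIGAR, a fructose 2,6-bisphosphatase related to the PFKFB enzymes, fell with a slope of -0.088 (adjusted p = 0.00701). ME2 was not past the threshold without replicate 1 (0.056, adjusted p = 0.0537), nor TIGAR without replicate 2 (-0.072, adjusted p = 0.0894).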

How the data were processed

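Poly(A)-selected, strand-specific libraries (Illumina TruSeq) were made from 3 biological replicates at each of 4 times. The deposited values are unnormalized whole-number counts for each gene symbol, made by the authors, and 0 columns were left without a sample. The submitters' processing notes name FastQC, STAR and hg19 without roles or versions, whereas the study's methods describe Salmon on an Ensembl transcriptome for this kit in general. The counter, its strand setting and its treatment of shared reads are not given in the sources used here.

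Slopes and contrasts came from edgeR 4.0.16 under R 4.3.3 (glmQLFit and glmQLFTest, TMM factors, mean of at least 10 counts over 12 libraries), with time in hours as a number, with time as 4 groups, and with 2 further contrasts for departure from a line. Benjamini-Hochberg adjustment was used with a threshold of 0.05, and standard errors came from the F statistic. Half-lives are -1 divided by the slope. CPM are TMM-scaled. Log2 ratios of counts plus 0.5 were tested by permutation (numpy 2.4.6), exactly with fewer than 10 libraries, and adjusted over 19 pairs or 4 PFKFB ratios. The edgeR fits and the ratio tests were checked on simulated data. The simulated libraries were independent, so the check does not cover deviations shared by libraries with the same replicate number. Few genes changed in the edgeR simulation, so it does not cover scaling when most genes change. The ratio simulation used abundant genes and free permutation alone, so scarce genes, exact tests and permutation inside replicates were not checked. Gene positions, transcript lengths and 3′ UTRs are those of GENCODE version 44 on GRCh38, matched by symbol; no coordinate was taken from the counts.

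The members, lists and tests were chosen with earlier results of these data known. All 39 members are named. A few genes of the further pathway lists are not reported here. Library values are given for the 5 steepest called rises, the 2 called falls and other members on which a comparison turned. Same-numbered libraries deviated together (correlation 0.300 to 0.612 over 18 pairs, against at most 0.0842 over 36 pairs with different numbers), and the replicate numbers come from the sample labels, so the numbers were taken to pair the samples. The main fits and the free permutations left this pairing out. It entered only through the replicate block and the permutation inside replicates. Replicates of a time differed by more than sampling noise in every pair (chi-square per degree of freedom at least 3.21). The alternatives were library totals, DESeq2 size factors, scaling to ACTB, the Wald test of DESeq2 1.42.0, changed count filters, a smaller pseudocount, a replicate block, other time points and leaving out each replicate. GAPDH, a member, was not used for scaling. Whether replicates are separate cultures beyond the label is not given, and p-values measure the spread between these samples.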

Additional observations from a re-analysis of the deposited data

How the results depend on the processing

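The alternatives named in the methods were run one at a time. DESeq2 size factors changed no call of the 65 results compared, and a pseudocount of 0.1 counts none of 24. DESeq2's Wald test added 1 call (PFKFB4). Without a count filter 3 calls were lost, and at a mean of at least 100 counts 1 was lost and 1 gained.

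Scaling to ACTB gave 8 members that fell, 0 that rose, 9 lower and 0 higher at 4 h, and a median slope of -0.013. The slope turned negative for HK1 (-0.046), PFKFB2 (-0.049), LDHA (-0.080), LDHB (-0.0044), PDHA1 (-0.020), PDHB (-0.079), DLAT (-0.12), DLD (-0.058), IDH1 (-0.043), IDH3B (-0.0043), OGDH (-0.10), DLST (-0.059), SUCLG1 (-0.034), SUCLG2 (-0.027), FH (-0.077), MDH1 (-0.013), ADPGK (-0.062), ACO1 (-0.010), SDHA (-0.075), SDHB (-0.046), PDK1 (-0.031), PDPR (-0.075), MPC1 (-0.038), MPC2 (-0.027), ME1 (-0.027) and ME2 (-0.050). Under TMM the slopes of these genes lay below that of ACTB (0.12). PGAM1, just below ACTB under TMM, kept a positive slope (0.00073). With library totals 4 members fell, the median was 0.070, 15 calls were lost (PFKFB2, ALDOC, LDHA, DLD, DLST, SUCLG2, FH, ADPGK, SDHA, PDK1, PDK2, PDPR, MPC1, MPC2 and ME2), and DLAT (-0.033) and OGDH (-0.019) turned negative. ACTB and totals cannot move the ratios within libraries.

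With the replicate number as a block, 4 members fell, 4 were lower at 4 h and 4 departed from a line, and no call was lost. From 0, 1 and 2 h, 0 members fell, 0 pairs differed in the exact permutation test with 9 libraries, 28 calls were lost, and the sign turned for SUCLA2 (0.034), PFKM over PFKP (-0.0066), ENO1 over ENO2 (0.028) and IDH3B over IDH3G (0.0025). From 1, 2 and 4 h the median was 0.117, 10 calls were lost, and the sign turned for IDH3A (0.0059), OGDH (-0.0050), PFKFB3 over PFKFB4 (0.060) and ENO1 over ENO2 (0.0069). The cause of these changes was not tested.

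Leaving out each replicate in turn gave 1 to 2 members that fell, 1 to 2 lower at 4 h, medians of 0.101 to 0.111 and 3 to 9 pairs. The sign of slopes near 0 varied, from -0.0025 to 0.013 for DLAT, -0.015 to 0.010 for IDH3A, -0.024 to 0.026 for SUCLA2, -0.074 to 0.040 for PFKFB3 over PFKFB4, -0.031 to 0.0012 for ALDOA over ALDOC and -0.0086 to 0.0047 for ENO1 over ENO2. The ratio of the PFKFB sum to the PFK1 sum kept its sign and its call in every alternative run. PFKFB3 made up most of the PFKFB sum, and the ratios of PFKFB2 and PFKFB4 to the PFK1 sum lost their calls in some runs. SUCLA2, PFKFB4 and ALDOC had the fewest counts (means of 33.8, 53.9 and 108 per library), and under the block the standard error of their slopes went from 0.055 to 0.052, from 0.083 to 0.048 and from 0.065 to 0.029.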
